A study of Penaeus japonicus with 16 samples.

Results

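The ubiquitin and SUMO pathway was represented on this kuruma shrimp array by 268 of the 13875 non-control probes. A probe was taken when its description held "ubiquitin", "sumo", "cullin", "ring finger" or "f-box" and neither "proteasome" nor "ribosomal", and white spot virus probes were left out. The choice used no measured value. By the words of their descriptions, 13 probes were modifiers (ubiquitin, SUMO and their relatives), 6 E1 activating enzymes, 31 E2 conjugating enzymes and 13 HECT ligases. Another 94 were RING finger proteins, counted together with every ligase whose description fitted no other class. The rest were 5 cullins, 40 F-box proteins, 39 proteases, 14 other proteins and 13 other ligases, such as UBR and SUMO ligases and those named only as ligases. The set therefore also holds proteins that are not enzymes. The gene identity of each probe rests on the deposited description, and the 268 probes carried 228 different descriptions.

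Ubiquitin is a small protein that is attached to other proteins in a relay: an E1 enzyme activates it, an E2 enzyme carries it, and an E3 ligase chooses the substrate. Chains of ubiquitin send many proteins to the proteasome, while other linkages steer endocytosis, DNA repair and immune signalling. SUMO, NEDD8 and UFM1 use relays of the same kind, cullins and F-box proteins are parts of multi-subunit ligases, and deubiquitinases and SUMO proteases cut the modifiers off again. In muscle of vertebrates the pathway is known for the turnover of contractile proteins.

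The study measured tissue RNA of Penaeus (Marsupenaeus) japonicus shrimp that the labels call untreated and apparently healthy, with a single dye on custom arrays. Gills, hepatopancreas (the digestive gland), lymphoid organ (an organ of penaeid shrimp that filters hemolymph) and muscle had 3 arrays each, and hemocytes (the circulating blood cells) had 4. Age, sex and strain of the shrimp are not stated, and the labels do not say that each array had its own animal, so p-values measure the spread between these samples, which may be technical. The tissues were not set against a control group, so each was set against the other 4, by their mean and pair by pair.

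Values are log2 scaled signals, that is, log2 of a probe's signal over the 75th percentile of the same array, so 0 lies at that percentile and levels of different probes are not compared. Between 41.0% (muscle 3) and 82.3% (lymphoid organ 1) of probes were detected per array, and 124 and 229 of the 268 pathway probes were detected on these same arrays. The lowest detected log2 scaled signal lay between -5.52 (gills 2) and -2.11 (muscle 3), so low probes dropped out of sight sooner on some arrays. Summed markers matched the labels of muscle and hepatopancreas. The summed scaled signal of 33 muscle protein probes was 35271 to 63255 on muscle arrays and at most 390 elsewhere. That of 79 digestive enzyme and hemocyanin probes was 21337 to 110985 on hepatopancreas arrays and at most 263 elsewhere. Not every listed probe went this way: 23 of the 33 had their highest mean in muscle, and 56 of the 79 in hepatopancreas. Muscle arrays detected 22 to 27 of the 33, and gill arrays 22 to 29. Of the 38 hemocyte marker probes, 25 had their highest mean in hemocytes. The 38 summed to 4162 to 6423 in hemocytes, 742 to 875 in gills, 320 to 731 in lymphoid organ, 206 to 622 in hepatopancreas and 41.9 to 185 in muscle. The summed gill list was 91.0 to 190 in gills and 80.6 to 115 in hemocytes, which overlap, and 9 of its 21 probes had their highest mean in gills. No marker was set for the lymphoid organ. In tissue RNA, fewer cells of a type and less RNA per cell cannot be told apart.

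Of the 268 pathway probes, 193 had full detection in 1 tissue or more, on all its usable arrays, and were tested, and 77 of all 268 were detected on all 16 arrays. Tissue levels differed for 127 of the 193 tested probes, or 65.8% (limma F test over the 5 tissues, adjusted p below 0.05 and at least 2-fold between the highest and the lowest tissue mean), against 69.1% of all 10317 tested probes. The median range between the highest and lowest tissue mean was 2.30 on the log2 scale for the pathway and 2.79 for all tested probes. Most pathway probes were thus unequal between tissues, at about the share seen on the whole array. Muscle held the highest mean for 61 of the 127 (26.8% of the 7134 probes that differed on the whole array), hepatopancreas for 28 (28%), hemocytes for 24 (25.3%), lymphoid organ for 10 (7.29%) and gills for 4 (12.6%). Where muscle was highest, hepatopancreas was lowest for 40 of the 61, against 45.2% of all such probes on the array.

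Against the mean of the other 4 tissues, muscle had 59 pathway probes higher (30.6% of the 193, background 20.4%) and 28 lower (14.5%, background 18.4%). Hepatopancreas showed the opposite split, with 29 higher (background 20.5%) and 58 lower (30.1%, background 23.4%). Hemocytes had 25 higher (background 18.8%) and 25 lower (background 27.1%). Gills had 4 higher (background 9.15%) and 13 lower (background 8.16%). The lymphoid organ had 6 higher (background 6.42%) and 2 lower (background 2.82%). The difference between the pathway's share and the background share was not tested.

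**Figure D1:**
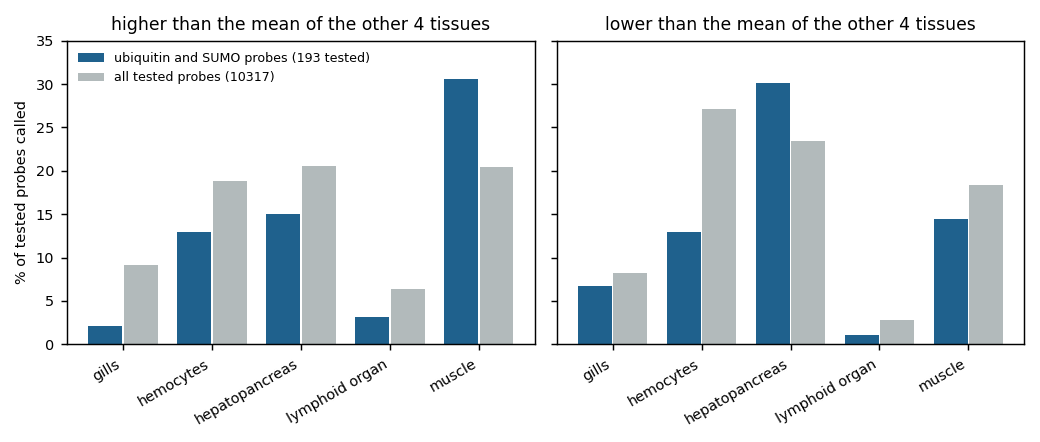
Share of tested probes called higher (left) or lower (right) than the mean of the other 4 tissues, in %, for each tissue on the horizontal axis. Blue bars are the 193 tested ubiquitin and SUMO probes and grey bars all 10317 tested probes; the pathway bar is the taller one for muscle higher (30.6% against 20.4%) and hepatopancreas lower (30.1% against 23.4%), and the shorter one in the other 8 cases.

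The median pathway probe stood 0.28 above the other tissues in muscle, while the median of all tested probes was -0.13 there. In hepatopancreas these medians were -0.45 and -0.34, in hemocytes 0.25 and -0.04, in gills -0.28 and -0.20, and in the lymphoid organ 0.07 and 0.10. These splits depend on the scaling. With the 75th percentile taken only over probes seen on each of the 16 arrays (common-probe scaling), the median of all probes moved by -0.47 in muscle, 0.62 in hepatopancreas, -0.32 in hemocytes and 0.13 in gills. Muscle then had 43 pathway probes higher and 41 lower (backgrounds 13.4% and 28.2%), hepatopancreas 36 and 26 (26.5% and 10.9%), hemocytes 14 and 34 (13.7% and 31.4%), gills 5 (background 9.55%) and 6 and the lymphoid organ 5 and 1 (5.99% and 2.24%). Hemocytes had 46 higher and 21 lower with scaling to the array median (all-probe median moved by 0.27) and 26 and 16 with quantile normalization (0.14), and the lymphoid organ 3 and 3 with median scaling (-0.21). The gap between the median pathway probe and the median of all probes in muscle was 0.42 under the main and common-probe scalings. It could not differ between these 2, because each subtracts 1 value per array on the log2 scale. Quantile normalization gave a gap of 0.38, and setting every value below -2.11 to -2.11 gave 0.29. The arrays lay on 2 slides of 8. With the slide as a block muscle had 57 higher and 26 lower, within slide 1 it had 39 and 18, and within slide 2 it had 10 and 6. The muscle gap was 0.33 in the blocked fit, 0.49 for slide 1 alone and 0.30 for slide 2 alone. For median scaling, quantile normalization and the slide fits the share over all probes was not computed.

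A stricter question is which probes led a tissue, that is, were 2-fold or more higher there in all 4 pairwise comparisons, each with an adjusted p below 0.05. Muscle led 33 of the 193 pathway probes in this way (17.1%, background 8.62%), hepatopancreas 13 (6.74%, background 7.61%) and hemocytes 2 (1.04%, background 5.04%). Gills led 0 (background 2.87%) and the lymphoid organ 0 (background 0.785%) by limma, and 2 and 0 with unadjusted p-values below 0.05. Under common-probe scaling muscle led 15 (background 5.30%), all of them among the 33, and hepatopancreas 16 (background 9.74%), among them all 13. The UFM1, E2 N, E3A, HECW2, hect E3 ubiquitin ligase, cullin 4b, cullin-5-like, otubain-like, ubiquitin-like protein 7 and TRIM32 probes described below were among the muscle leaders that did not lead under common-probe scaling. The 33 muscle probes were mostly seen in every tissue, 25 of them on all 16 arrays, and exceeded the next tissue by 1.03 to 4.80 on the log2 scale. The 13 hepatopancreas probes exceeded it by 1.34 to 6.98, and 10 of them were undetected on all arrays of at least 1 other tissue.

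**Figure D2:**
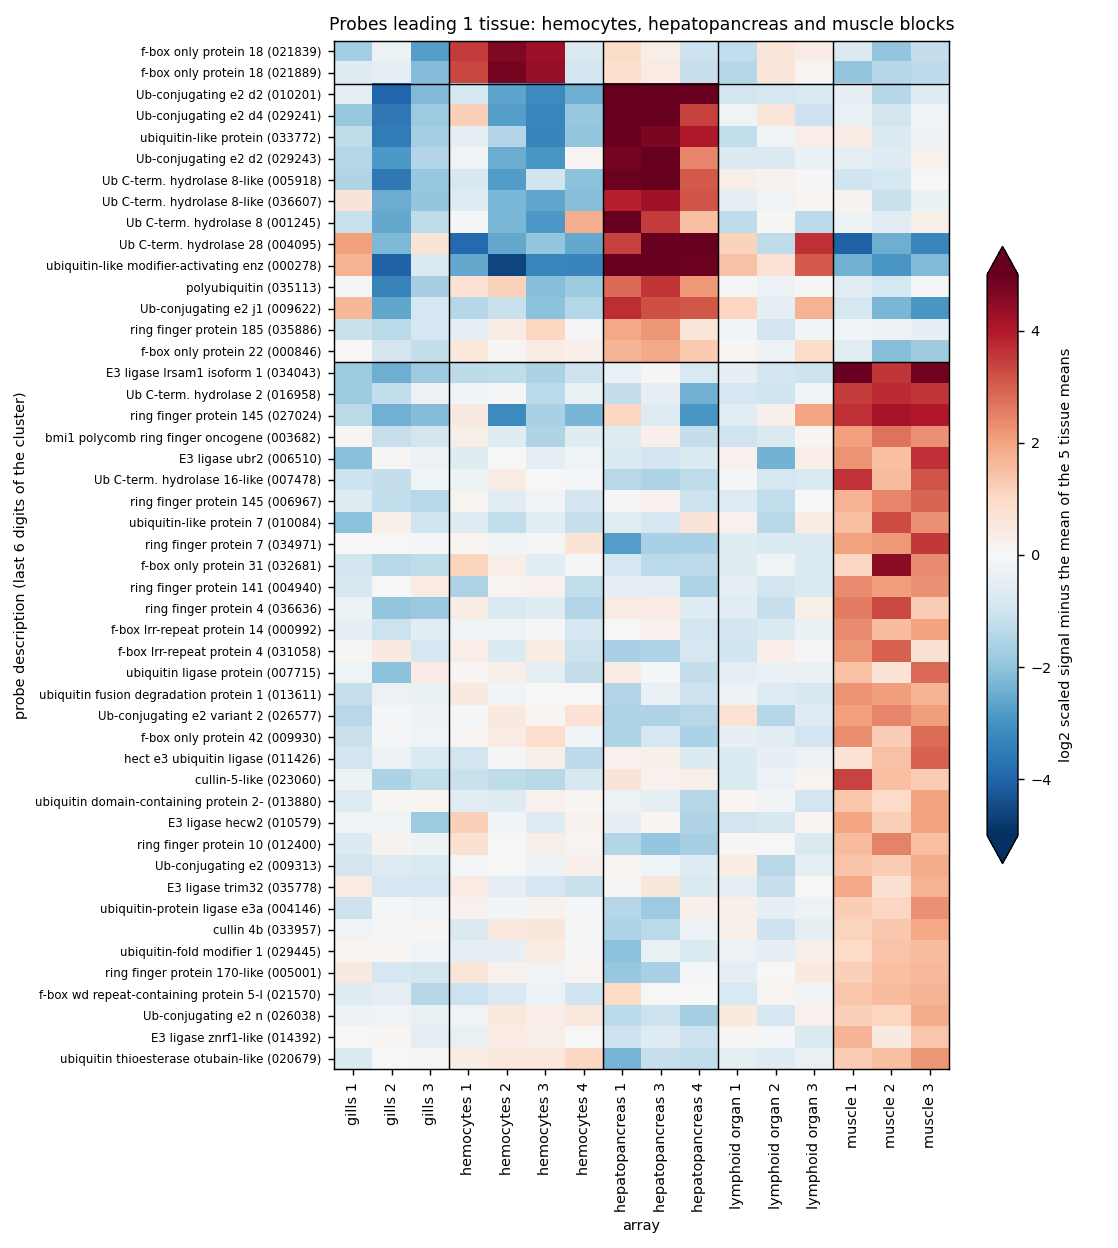
Log2 scaled signal minus the mean of the 5 tissue means (colour, red high and blue low, cut at 5 in either direction) for the 48 probes leading 1 tissue (rows) on the 16 arrays (columns). The 2 hemocyte rows are red on 3 of 4 hemocyte arrays, and the 13 hepatopancreas rows are red on all 3 hepatopancreas arrays. The 33 muscle rows are red on all 3 muscle arrays and mostly paler or blue elsewhere. In the FBXO31 and HECW2 rows an array of another tissue exceeds the lowest muscle array.

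Among the modifiers, all 13 probes were tested and differed between tissues, and in hepatopancreas 7 were lower (53.8%, background 23.4%) and 3 higher (23.1%, background 20.5%). As in all classes below, these are counts of few probes, and the difference from the background was not tested. A polyubiquitin probe (cluster011853) whose description names the plant Glehnia littoralis had log2 scaled signals of 3.07, 1.75 and 2.62 in hepatopancreas. Its signals were 4.26, 4.17 and 5.15 in gills, 6.30, 4.69, 5.88 and 4.47 in hemocytes, 4.73, 5.58 and 4.39 in lymphoid organ, and 7.33, 4.75 and 5.29 in muscle. All 3 hepatopancreas arrays lay below every other array, and the difference from the mean of the other tissues was -2.66 (SE 0.51, adjusted p 0.000487 by limma). The same probe was higher in muscle by 1.48 (adjusted p 0.0301), a call lost without muscle 1 (0.304), with quantile normalization (0.126) and with common-probe scaling (0.147). SUMO, the modifier of many nuclear proteins, followed with a precursor probe (cluster032561) at 4.28, 4.08, 4.28 and 5.05 in hemocytes and 1.79, 1.82 and 3.15 in hepatopancreas, and 3.02 to 4.18 in the remaining tissues. Its 4 hemocyte arrays were above all hepatopancreas arrays, and it was higher in hemocytes (1.14) and lower in hepatopancreas (-1.57) than elsewhere. Both calls were lost with common-probe scaling (0.0176 and 0.0169, below 2-fold), and the hemocyte call also without hemocytes 4 (0.0368, below 2-fold) and with the replicate block (0.0109, below 2-fold).

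The second SUMO probe, described by the yeast name Smt3 (cluster008893), had -1.14, -0.45, -0.07 and -0.32 in hemocytes, and -3.42, -3.22 and -2.97 in hepatopancreas, where 1 of 3 arrays detected it. It was lower in hepatopancreas (log2 -2.25), and its hemocyte call (1.14) was lost in 15 of 28 alternative analyses (those within a single slide not counted, here and below). Ubiquitin-fold modifier 1 (cluster029445), the UFM1 protein, had 1.24, 1.68 and 1.80 in muscle, and between -1.79 and 0.61 on all other arrays. It led muscle, with a difference of 1.65 (SE 0.36, adjusted p 0.00170). Ubiquitin-like protein 5 (cluster018478), known in yeast for a role in splicing, was higher in muscle by 1.48 and lower in hepatopancreas (log2 -1.78). The tRNA-thiolation modifier Urm1 (cluster011368) differed over the 5 tissues (adjusted p 0.0338) with no call in any single tissue, and this was lost in 9 of 28 alternatives.

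Probes for ubiquitin itself did not share a pattern. Ubiquitin C is a gene of ubiquitin repeats, and 2 probes carry its name. The probe cluster011670 had -2.52, -1.32 and -2.72 in muscle, where 1 of 3 arrays detected it, and 5.22, 2.48, 1.26 and 1.38 in hemocytes. Its signals were 2.05, 1.21 and 0.68 in gills, 0.42, 1.26 and -1.12 in hepatopancreas, and 0.54, 2.31 and 0.75 in lymphoid organ. It was lower in muscle (log2 -3.51, SE 0.70, adjusted p 0.000882) with no overlap between muscle and any other tissue. The other ubiquitin C probe (cluster011854) had 0.11, -0.44 and 1.37 in hepatopancreas, and 1.44 to 5.98 on the other arrays. All 3 hepatopancreas arrays were the lowest (log2 -2.81, adjusted p 0.00266). The F test call of this probe was lost with common-probe scaling (0.0891), without hepatopancreas 1 (0.0631) and without hepatopancreas 3 (0.0851). Ubiquitin C variant 2 (cluster013212) was lowest in hemocytes, at -3.88, -4.02, -3.99 and -5.14, and had -1.33, 0.17 and -0.16 in lymphoid organ. Its hemocyte difference was -2.91 (SE 0.47, adjusted p 9.73e-05), and its lymphoid organ call (1.86, adjusted p 0.0346) was lost in 6 of 28 alternatives, among them leaving out lymphoid organ 2 (0.2) or lymphoid organ 3 (0.156). The hemocyte call was lost with a common detection floor (0.0759), that is, with every value below -2.11 set to -2.11.

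A group of 3 modifier probes ran the other way and was high in hepatopancreas. The probe described as ubiquitin-like protein (cluster033772) had 1.23, 1.00 and 0.30 in hepatopancreas and was not detected on any of the 13 other arrays. Hepatopancreas was at least 23.5-fold higher (adjusted p 1.13e-06), where "at least" takes each undetected spot of the dimmer tissues at the lowest detected signal of its array. A polyubiquitin probe (cluster035113) had -1.29, -0.55 and -1.94 in hepatopancreas, and was detected elsewhere only on 1 hemocyte and 1 lymphoid organ array. It was at least 5.01-fold higher there (adjusted p 0.000674), but with the common detection floor the difference was below 2-fold (0.00198) and the F test call was lost as well (0.0157, below 2-fold). Polyubiquitin 2 (cluster021089), with -1.62, -1.53 and -3.30 in hepatopancreas, was the third and was also higher (2.68), though not without hepatopancreas 1 (0.0572), without hepatopancreas 3 (0.0593) or with the common detection floor (0.00366, below 2-fold).

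**Figure D3:**
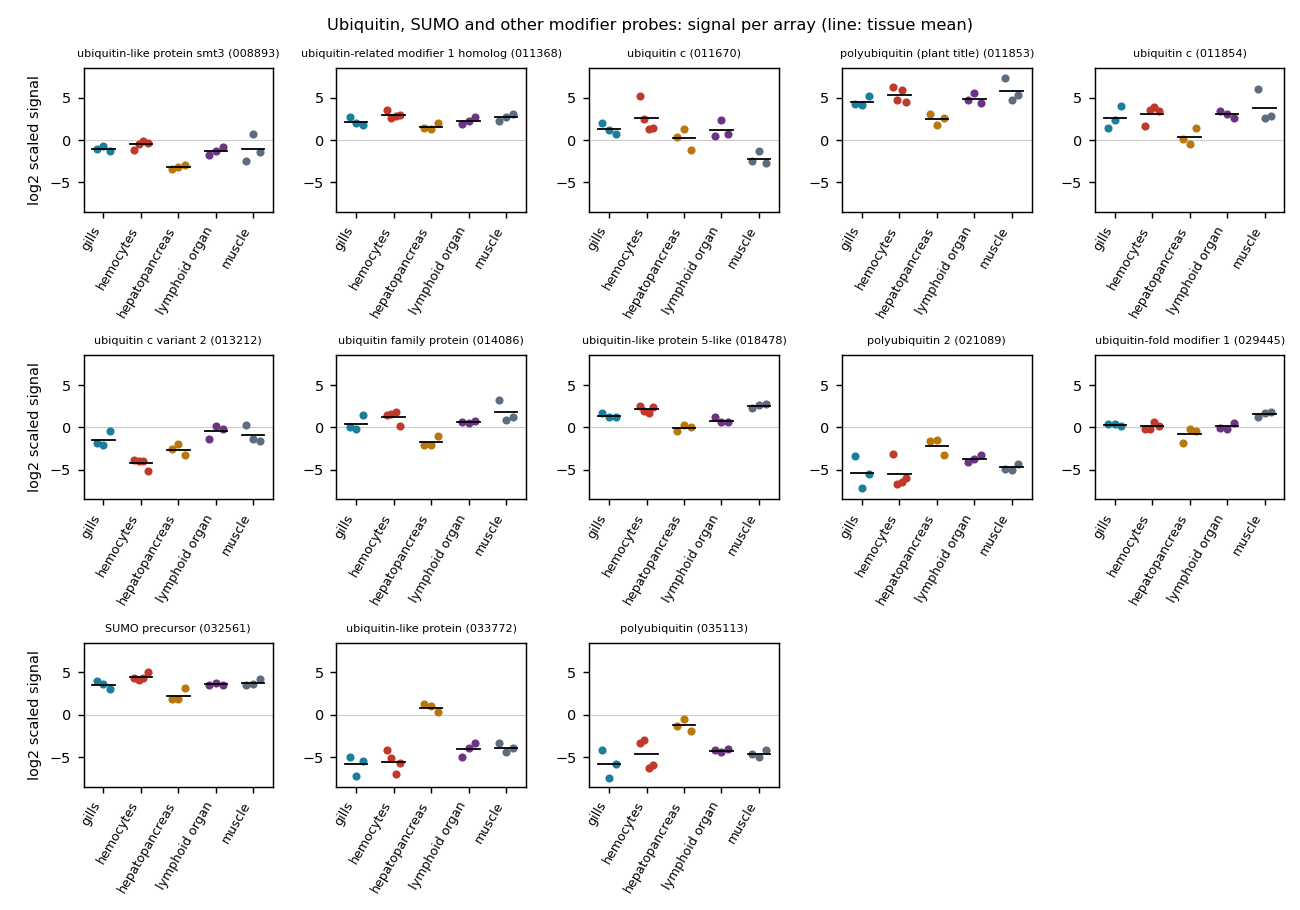
Log2 scaled signal (vertical axis) of each modifier probe in the 5 tissues; points are arrays, lines tissue means. Hepatopancreas is the lowest tissue for 8 of the 13 probes, such as polyubiquitin cluster011853 (mean 2.48), and the highest for 3, such as ubiquitin-like protein cluster033772 (mean 0.84).

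Of the 6 E1 probes, 5 were tested and 4 differed. The 2 tested probes for the ubiquitin E1 had different highest tissues. One, ubiquitin-activating enzyme E1 (cluster020053), had 4.17, 4.52, 4.15 and 4.74 in hemocytes, 2.68, 3.00 and 2.99 in gills, 1.62, 1.66 and 3.16 in hepatopancreas, 4.26, 3.43 and 3.11 in lymphoid organ, and 3.28, 3.28 and 4.19 in muscle. It was higher in hemocytes (1.34, SE 0.33, adjusted p 0.00305) and lower in hepatopancreas (-1.47, adjusted p 0.00357), although the second call fell below 2-fold with common-probe scaling (0.0404). Hemocytes did not pass the test against lymphoid organ (adjusted p 0.22) or muscle (0.14). The probe for ubiquitin-like modifier-activating enzyme 1 (cluster000278), the vertebrate name of the same enzyme, had 3.38, 3.18 and 2.81 in hepatopancreas, -0.63, -1.34 and 0.99 in lymphoid organ and -0.33, -6.12 and -2.79 in gills, and was undetected on all hemocyte and muscle arrays. Hepatopancreas was at least 47.4-fold brighter than the other tissues (adjusted p 8.03e-06), with every array above all others. SUMO-activating enzyme subunit 2 (cluster033907), the catalytic part of the SUMO E1, was higher in hemocytes (1.62, adjusted p 0.0133), though not without hemocytes 4 (0.0548), and its F test call was lost in 15 of 28 alternatives. The UFM1 activator, modifier-activating enzyme 5 (cluster033548), differed over the tissues (adjusted p 0.0327) with no single-tissue call, and this was lost without any 1 of 5 arrays: hemocytes 1 (0.0553), hemocytes 3 (0.0567), hemocytes 4 (0.0877), hepatopancreas 1 (0.0775) or muscle 1 (0.0502).

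Among the E2 enzymes, 24 of 31 were tested and 15 differed (62.5%, background 69.1%). In muscle 7 were higher (29.2%, background 20.4%) and 2 lower (8.33%, background 18.4%), and in hepatopancreas 5 were higher (20.8%, background 20.5%) and 7 lower (29.2%, background 23.4%). Members of the D family serve many RING ligases, and 3 of their probes led hepatopancreas. E2 D2 (cluster010201) had 3.20, 3.73 and 1.62 in hepatopancreas, -3.74, -7.26 and -5.49 in gills, -4.17, -5.95, -6.50 and -5.76 in hemocytes, -4.22, -4.12 and -4.05 in lymphoid organ and -3.70, -4.74 and -3.96 in muscle. Outside hepatopancreas it was detected on 1 lymphoid organ array only. Hepatopancreas was at least 93.1-fold brighter than the other tissues (adjusted p 9.95e-08), and the fitted log2 difference, which uses the undetected signals as read, was 7.69 (SE 0.65). The second E2 D2 probe (cluster029243) was detected on the 3 hepatopancreas arrays alone, at 0.86, 1.34 and -1.50. Together with E2 D4 (cluster029241; 1.43, 2.27 and -0.26 in hepatopancreas) it was at least 15.5-fold and 26.5-fold brighter there (adjusted p 1.33e-05 and 1.02e-05). Whether these 3 D-family probes hybridise to each other's RNA was not tested.

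A further hepatopancreas E2 was J1 (cluster009622), a membrane-anchored enzyme of degradation at the endoplasmic reticulum in other animals. It had 2.48, 2.00 and 1.90 in hepatopancreas, 0.45, -3.79 and -2.10 in gills and -0.14, -1.70 and 0.51 in lymphoid organ. It was detected on 3 of 4 hemocyte arrays and 1 of 3 muscle arrays. It was at least 15.4-fold higher in hepatopancreas than in the other tissues (adjusted p 9.91e-05), and all 3 arrays lay above every other array. The probe named only ubiquitin-conjugating enzyme (cluster009499) was the hemocyte counterpart, with 2.48, 1.38, 1.00 and 3.14 in hemocytes, -0.21, -0.85 and 0.07 in gills, -1.78, -0.95 and -3.14 in hepatopancreas, 1.59, 0.24 and -0.29 in lymphoid organ, and no detection in muscle. Its hemocyte difference was 3.24 (SE 0.49, adjusted p 5.39e-05), with an order of hemocytes, lymphoid organ, gills, hepatopancreas and muscle in which hemocytes and lymphoid organ did not differ beyond their spread (adjusted p 0.12).

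Ubiquitin-conjugating enzyme E2 N and E2 variant 2 are known to form 1 heterodimer, which builds chains linked through lysine 63 of ubiquitin, with the variant as the inactive partner. E2 N (cluster026038) had 2.47, 2.35 and 3.13 in muscle, 1.00, 1.10 and 0.90 in gills, 1.08, 1.81, 1.60 and 1.79 in hemocytes, -0.09, 0.20 and -0.37 in hepatopancreas, and 1.77, 0.42 and 1.47 in lymphoid organ. E2 variant 2 (cluster026577) had 2.62, 3.01 and 2.65 in muscle, -0.83, 0.49 and 0.30 in gills, 0.50, 1.03, 0.64 and 1.27 in hemocytes, -1.01, -0.99 and -0.83 in hepatopancreas, and 1.27, -0.89 and -0.10 in lymphoid organ. Both led muscle, by 1.73 (SE 0.33, adjusted p 0.000590) and 2.76 (SE 0.40, adjusted p 5.59e-05) over the mean of the other tissues, and both were lower in hepatopancreas (-1.70 and -1.87). E2 G1 (cluster006234) was higher in muscle by 1.63 (adjusted p 0.00871), though not without muscle 3 (0.0637). The F test call of E2 G1 was lost with common-probe scaling (0.132), without muscle 1 (0.0715) and without muscle 3 (0.106). The steadiest tested probes of those seen on all arrays included E2 T-like (cluster013017; tissue differences between -0.26 and 0.49, F adjusted p 0.735) and E2-25kd (cluster027446; adjusted p 0.39).

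HECT ligases, which take ubiquitin onto their own cysteine before passing it on, were tested in 9 of 13 cases and differed in 6 (66.7%, background 69.1%), with 4 higher in muscle (44.4%, background 20.4%) and 3 lower in hepatopancreas (33.3%, background 23.4%). Smurf2 (cluster031398), a ligase of the TGF-beta and BMP pathways in vertebrates, stood out by its low hepatopancreas level. It had -0.47, 0.51 and 1.07 in hepatopancreas, 2.92, 3.25 and 3.49 in gills, 4.36, 4.30, 4.26 and 4.09 in hemocytes, 3.81, 3.33 and 3.36 in lymphoid organ, and 4.76, 3.82 and 5.14 in muscle. Hepatopancreas lay below every other array (log2 difference -3.52, SE 0.34, adjusted p 4.58e-07), while hemocytes against muscle did not pass the test (adjusted p 0.54). HECT ligases leading muscle were E3A (cluster004146; 2.49, 2.29 and 3.52 in muscle, -0.57 to 1.49 elsewhere), HECW2 (cluster010579; 1.49, 0.71 and 1.54 in muscle, -2.30 to 0.73 elsewhere) and a probe named hect E3 ubiquitin ligase (cluster011426). The F test call of HECW2 was lost with common-probe scaling (0.0552). E3C (cluster013183), which in mammals extends chains at the proteasome, went the other way. It was higher in hemocytes (1.41, adjusted p 0.00618) and lower in muscle (-1.82, adjusted p 0.00282), where its signals were -4.30, -2.54 and -4.25 and 1 array detected it. With the common detection floor both calls were lost, in hemocytes because the difference was below 2-fold (0.00125) and in muscle by the test (0.123).

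RING finger proteins, which bring a charged E2 to the substrate, and the ligases counted with them were the largest class. Of these 94 probes 65 were tested and 39 differed (background 69.1%). In muscle 20 were higher (30.8%, background 20.4%) and 13 lower (20.0%, background 18.4%), and muscle led 11 of them (background 8.62%). The probe for LRSAM1 isoform 1 (cluster034043), a ligase that in human cells acts on the endosomal sorting protein TSG101, had the lowest F test p of the named probes (adjusted p 2.81e-08). It had 7.58, 6.22 and 7.46 in muscle, 0.86, 0.21 and 0.88 in gills, 1.34, 1.39, 1.05 and 1.62 in hemocytes, 2.29, 2.69 and 1.88 in hepatopancreas, and 2.21, 1.69 and 1.60 in lymphoid organ. Every muscle array lay over 3 log2 units above every other array, and muscle was 47.1-fold higher than the other tissues (log2 5.56, SE 0.33, adjusted p 4.56e-09). In the order muscle, hepatopancreas, lymphoid organ, hemocytes, gills, no 2 neighbours after muscle passed the test, but gills were lower than hepatopancreas (-1.64, adjusted p 0.0065).

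Both probes for RNF145, a ligase of the endoplasmic reticulum membrane in mammals, led muscle. One (cluster027024) had 0.08, 0.56 and 0.43 in muscle, -4.10, -3.30 and -1.57 in lymphoid organ, and no detection on any gill, hemocyte or hepatopancreas array, and was at least 15.2-fold higher in muscle (adjusted p 0.000114). The second (cluster006967) had 1.32, 2.02 and 2.50 in muscle and -1.79 to -0.19 elsewhere (difference 2.95, adjusted p 2.43e-05). Bmi1 (cluster003682), a Polycomb subunit whose complex ubiquitinates histone H2A, had 2.69, 3.35 and 2.92 in muscle and -0.87 to 0.91 on all other arrays. Its difference was 2.94 (SE 0.42, adjusted p 4.22e-05), and no pair among the other 4 tissues passed the test. RNF7 (cluster034971), the RING subunit that pairs with cullin-5, had 5.48, 5.61 and 7.01 in muscle against 0.69 to 4.15 elsewhere (3.21, adjusted p 3.14e-06), with hepatopancreas the low tissue (0.69, 1.85 and 1.83).

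**Figure D4:**
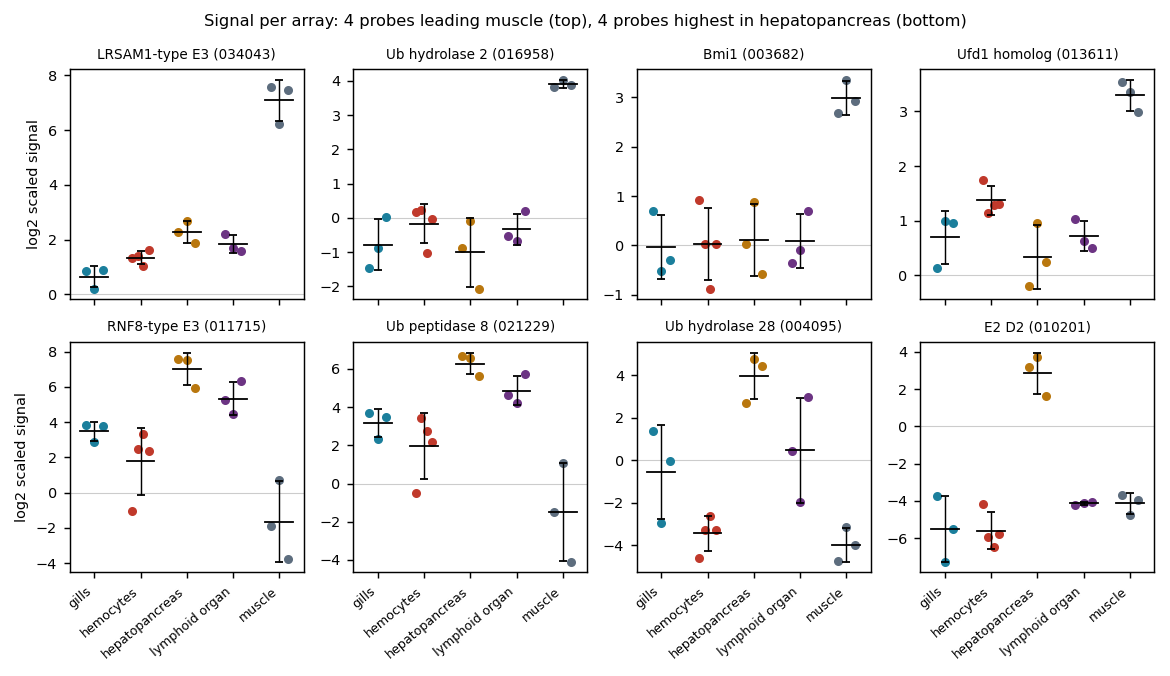
Log2 scaled signal (vertical axes, scaled per panel) of 8 probes on each array, with tissue means (line) and SD (bar; n = 3, hemocytes 4). In the upper row the 3 muscle arrays lie above all other arrays, as for LRSAM1 (mean 7.09); in the lower row hepatopancreas has the highest mean, as for RNF8 (7.02) and E2 D2 (2.85).

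In a second RING pattern hepatopancreas was high, the lymphoid organ next, and muscle low. RNF8 (cluster011715), a ligase that marks damaged DNA in mammals, had 7.57, 7.52 and 5.96 in hepatopancreas, 5.25, 4.43 and 6.31 in lymphoid organ, 3.83, 2.87 and 3.77 in gills, -1.03, 2.47, 3.30 and 2.34 in hemocytes, and -1.88, 0.74 and -3.80 in muscle. Hepatopancreas was higher (4.78, SE 0.83, adjusted p 0.000209) and muscle lower (-6.05, SE 0.83, adjusted p 3.2e-05) than the other tissues, and hepatopancreas and lymphoid organ overlapped (adjusted p 0.27). The muscle arrays spread over more than 4 log2 units, and hemocytes 1 lay far below the other hemocyte arrays. TRIM50-like (cluster021768) had 2.53, 4.85 and 3.71 in hepatopancreas, -0.52, 0.67 and 2.98 in lymphoid organ, 2.28, -0.80 and 0.14 in gills, -3.18, -1.24, -2.24 and -3.68 in hemocytes, and no detection in muscle. It was higher in hepatopancreas (4.93), and lower in hemocytes (-2.92) and muscle (-4.60), and all 3 calls held in each of 28 alternatives. Mycbp2 (cluster032513), a large ligase known from neurons, was at least 16.5-fold higher in hepatopancreas (2.87, 0.89 and 0.55 there). This probe was at least 4.18-fold lower in hemocytes and at least 1.59-fold lower in muscle, and the muscle call was lost in 8 of 28 alternatives. Of the 5 probes with this description, 1 was tested. The 79 digestive enzyme and hemocyanin markers summed to 21337 to 110985 in hepatopancreas and 138 to 263 in lymphoid organ. In gills these markers summed to 44.5 to 86.7, in hemocytes to 19.3 to 67.0 and in muscle to 32.4 to 198. Their part in this order was not tested.

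Membrane-associated ring finger 8 (cluster002610), which in mammals removes receptors from the cell surface, was among the 6 probes higher in lymphoid organ. It had -2.33, -3.33 and -2.35 there, and elsewhere was detected on 1 hepatopancreas array. The lymphoid organ was at least 1.61-fold higher (adjusted p 0.0171), a call lost without lymphoid organ 1 (0.0993), without lymphoid organ 3 (0.0992) or with a common detection floor, under which all its values were equal. The class of other ligases gave the lymphoid organ call that held in all 28 alternatives. The probe ubiquitin-protein ligase cluster011546 had 1.16, 2.32 and 1.78 in lymphoid organ, -0.57, 0.92 and 0.98 in gills, -1.98, -1.40, -1.07 and -1.58 in hemocytes, -4.49, -2.79 and -2.39 in hepatopancreas, and 1.69, -0.57 and -0.54 in muscle. It was higher in lymphoid organ (2.78, SE 0.54, adjusted p 0.00379) and lower in hepatopancreas (-3.44, adjusted p 7.56e-05), yet gills (0.27) and muscle (0.093) did not pass the pairwise test against lymphoid organ. Another, ubiquitin protein ligase (cluster001621), followed the order of RNF8, with 3.46, 4.38 and 2.63 in hepatopancreas, a mean of 2.33 in lymphoid organ, and -2.80, -1.33 and -4.12 in muscle. Its lymphoid organ call (1.97, adjusted p 0.0326) was lost without any 1 of the 3 lymphoid organ arrays, with median scaling (0.0544) and with the replicate block (0.0544). UBR2 (cluster006510), a ligase that reads the first residue of its substrates, led muscle with a mean of -0.78 and was undetected in hepatopancreas (at least 5.44-fold higher in muscle, adjusted p 0.000689). The F test call of UBR2 was lost without muscle 3 (0.0526).

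Cullins are the scaffolds of the largest ligase family, and F-box proteins are the substrate receptors of those built on cullin-1. Of 5 cullin probes 3 were tested and all 3 differed. Cullin 4b (cluster033957) had 2.24, 2.45 and 3.05 in muscle, 0.94, 1.06 and 1.17 in gills, 0.38, 1.60, 1.68 and 1.06 in hemocytes, -0.43, -0.25 and 0.83 in hepatopancreas and 1.36, 0.09 and 0.66 in lymphoid organ. The muscle arrays lay above all others (1.83, SE 0.38, adjusted p 0.00111). Cullin-5-like (cluster023060) had 0.27, -1.61 and -1.84 in muscle, against -4.71 to -2.48 elsewhere (2.59, adjusted p 0.000356). Its F test call was lost with the common detection floor (0.0798). The RING partner of cullin-5, RNF7, was higher in the same tissue. Cullin-1 (cluster013088) did not pass the test in muscle (0.80, adjusted p 0.132) and was lower in hepatopancreas (-1.58, adjusted p 0.0047), a call lost with common-probe scaling (0.0657). The F test call of cullin-1 was lost with common-probe scaling (0.233), without hepatopancreas 1 (0.128) and without hepatopancreas 3 (0.116).

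F-box proteins had 23 of 40 probes tested and 15 differing (65.2%, background 69.1%). In muscle 8 were higher (34.8%, background 20.4%) and 4 lower (17.4%, background 18.4%), in hepatopancreas 6 were lower (26.1%, background 23.4%), and in hemocytes 5 were higher (21.7%, background 18.8%). FBXO42 (cluster009930) had 2.57, 1.47 and 3.04 in muscle and -1.33 to 1.14 elsewhere (2.65, SE 0.38, adjusted p 4.85e-05). FBXO31 (cluster032681) had 1.10, 4.59 and 2.40 in muscle and -1.34 to 1.18 elsewhere, so muscle 1 overlapped a hemocyte array while the difference was 3.30 (adjusted p 0.000116). FBXO18, a DNA helicase with an F-box in humans, was the hemocyte member. Its probe cluster021839 had 0.95, 2.06, 1.70 and -3.28 in hemocytes, -4.25, -2.85 and -5.32 in gills, -1.64, -2.29 and -3.61 in hepatopancreas, -3.81, -1.97 and -2.21 in lymphoid organ, and no detection in muscle. Hemocytes 1, 2 and 3 lay above every other array and hemocytes 4 did not, with the same array low for the probes cluster021889 (-3.55) and cluster021954 (-3.70). Each of the 3 probes was at least 7.78-fold higher in hemocytes (adjusted p 0.00116, 0.00148 and 0.00238). Their calls held without any single array, but not within slide 2 (0.202, 0.216 and 0.236).

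FBXL16 (cluster034085) was 1 of 4 probes higher in gills. It had -1.74, 1.17 and 0.77 in gills, -0.16, -1.10 and -0.49 in muscle, -3.07, -2.57, -1.41 and -4.04 in hemocytes, -2.06, -1.86 and -3.43 in hepatopancreas and -3.79, -4.36 and -2.90 in lymphoid organ. Its gill call (2.44, adjusted p 0.0110) was lost without gills 2 (0.118) or gills 3 (0.0864), and gills against muscle did not pass the test (0.58). Of the probes higher in gills, the 1 whose gill call held in all 28 alternatives was a ubiquitin-specific proteinase (cluster004551). It had -0.20, 0.07 and -0.19 in gills, -1.98, -2.51, -2.43 and -2.48 in hemocytes, -2.02, -2.50 and -0.99 in hepatopancreas, -0.73, -0.46 and -0.93 in lymphoid organ and -1.80, -3.09 and -2.22 in muscle. The gill arrays were the 3 highest (1.71, SE 0.38, adjusted p 0.00469), but gills against lymphoid organ did not pass the test (0.52). A probe described as a homolog of a vertebrate ubiquitin protein (cluster011994) was detected on the 3 gill arrays (-2.46, -1.26 and -1.73) and 1 hepatopancreas array, and was at least 2.92-fold higher in gills (adjusted p 0.00156). With the common detection floor its gill difference was below 2-fold (0.024) and the F test call was lost (0.0661). Of the 13 probes lower in gills, 7 were undetected on every gill array, and the count fell to 2 without gills 2, 6 without gills 3 and 6 with common-probe scaling, and was 20 without gills 1. Among the 13, the call of LRSAM1 (cluster034043) held in all 28 alternatives (limma adjusted p 2.35e-05 to 0.00139).

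Proteases that remove ubiquitin or SUMO had 28 of 39 probes tested and 17 differing (60.7%, background 69.1%). In muscle 8 were higher (28.6%, background 20.4%) and 4 lower (14.3%, background 18.4%), and in hepatopancreas 5 were higher (17.9%, background 20.5%) and 10 lower (35.7%, background 23.4%). Ubiquitin carboxyl-terminal hydrolase 2 (cluster016958), a ubiquitin-specific protease, had 3.82, 4.03 and 3.88 in muscle, -1.47, -0.89 and 0.02 in gills, 0.17, 0.22, -1.02 and -0.05 in hemocytes, -0.89, -0.08 and -2.07 in hepatopancreas, and -0.52, -0.68 and 0.19 in lymphoid organ. Muscle was 22.4-fold higher (log2 4.49, SE 0.43, adjusted p 7.82e-07), its arrays had an SD of 0.11, and no pair of the remaining tissues passed the test. Hydrolase 16-like (cluster007478; 2.97, 0.94 and 2.51 in muscle, -2.19 to -0.25 elsewhere) and otubain-like thioesterase (cluster020679; 1.84, 2.10 and 2.78 in muscle, -1.72 to 1.64 elsewhere) also led muscle. UCH-L3 (cluster029446), which trims small adducts from ubiquitin, was higher in muscle by 2.47 (adjusted p 0.00134) with 2 of 3 muscle arrays detecting it. This call (0.0257, below 2-fold) and its F test call (0.147) were lost with the common detection floor. Hydrolase 14-like (cluster004777), which acts at the proteasome in mammals, did not pass the test over the tissues (F adjusted p 0.0795).

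Among the 5 proteases higher in hepatopancreas were USP8 and USP28 probes. USP8 removes ubiquitin from receptors on endosomes in mammals. Both hydrolase 8-like probes (cluster005918 and cluster036607) led hepatopancreas, the first with 1.33, 1.80 and -0.52 in hepatopancreas and detection elsewhere on 1 hemocyte and 1 lymphoid organ array (at least 20.9-fold higher, adjusted p 1.2e-06). Hydrolase 8 (cluster001245) had 0.85, -1.16 and -3.14 in hepatopancreas, with 1 hemocyte array detecting it elsewhere (at least 5.80-fold higher, adjusted p 0.000671), and its F test call was lost with the common detection floor (0.101). The probe ubiquitin specific peptidase 8 (cluster021229) was detected on 15 arrays and followed RNF8: 6.66, 6.55 and 5.62 in hepatopancreas, 4.64, 4.23 and 5.73 in lymphoid organ, 3.70, 2.35 and 3.48 in gills, -0.49, 3.45, 2.76 and 2.16 in hemocytes, and -1.48, 1.06 and -4.09 in muscle. It was higher in hepatopancreas (4.15, adjusted p 0.000674) and lower in muscle (-5.58, adjusted p 6.27e-05). USP28 (cluster004095), a nuclear deubiquitinase in mammals, had 2.70, 4.74 and 4.42 in hepatopancreas, 0.44, -1.99 and 2.95 in lymphoid organ, 1.35, -2.97 and -0.06 in gills, and -4.59, -3.29, -2.63 and -3.28 in hemocytes, and was undetected in muscle. Hepatopancreas was at least 40.4-fold higher (adjusted p 5.54e-05) and overlapped lymphoid organ 3.

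Ufd1 (cluster013611), which with Npl4 hands ubiquitinated proteins to the p97 ATPase, had 3.54, 3.36 and 2.98 in muscle, 0.13, 1.00 and 0.95 in gills, 1.74, 1.14, 1.29 and 1.31 in hemocytes, -0.19, 0.95 and 0.24 in hepatopancreas, and 1.04, 0.62 and 0.50 in lymphoid organ. Muscle stood clear of all other arrays (2.51, SE 0.32, adjusted p 1.5e-05). Ubiquitin-like protein 7 (cluster010084) led muscle by 2.94 (adjusted p 0.000511) and the UBFD1-like protein (cluster031529) was higher there by 2.30 and lower in hepatopancreas (log2 -2.48). The proteasomal ubiquitin receptor ADRM1-like (cluster002150) was among the 3 steadiest probes, with tissue differences between -0.39 and 0.49 (F adjusted p 0.719).

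**Figure D5:**
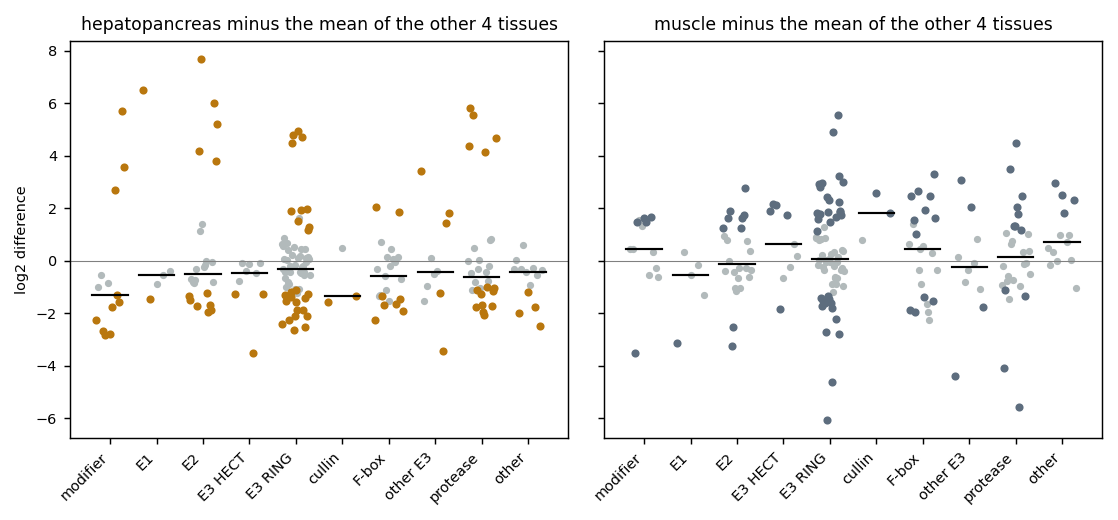
Difference of hepatopancreas (left) and muscle (right) from the mean of the other 4 tissues, on the log2 scale, for each of the 193 tested probes, grouped by role along the horizontal axis; coloured points passed the test, grey ones did not, and lines are medians of tested probes. In muscle the coloured points above 0 number 20 for RING finger proteins and the ligases counted with them, 8 each for F-box proteins and proteases and 7 for E2 enzymes.

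In the tissue pairs, hepatopancreas against muscle gave the most calls: 32 pathway probes were higher in hepatopancreas (background 21.6%) and 75 lower (background 24.1%). Hemocytes against hepatopancreas gave 95 calls (background 52.6%), with 62 higher (background 26.7%) and 33 lower (background 25.9%). Gills against muscle gave 14 higher (background 13.9%) and 44 lower (background 14.8%), and hemocytes against muscle 75 calls (background 41.8%), with 30 higher (background 19.9%) and 45 lower (background 21.9%). Lymphoid organ against muscle gave 23 higher (background 16.4%) and 46 lower (background 15.6%). Gills against lymphoid organ gave the fewest, with 2 higher (background 4.83%) and 3 lower (background 4.32%), and hemocytes against lymphoid organ 4 higher (background 6.70%) and 14 lower (background 14.8%). Gills against hemocytes gave 10 higher (background 14.1%) and 15 lower (background 12.4%), and gills against hepatopancreas 30 higher (background 16.8%) and 27 lower (background 16.9%). Hepatopancreas against lymphoid organ gave 14 higher (background 10.1%) and 28 lower (background 14.6%). These pairs share arrays.

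Probes with one description did not always share a pattern. Of 15 descriptions with several tested probes, 7 had the same highest tissue for all of them, among them FBXO18, RNF145, FBXO31, E2 D2, hydrolase 8-like and otubain-like. TRIM32, a ligase known in vertebrate muscle, had 3 tested probes, of which 2 were highest in muscle and 1 in hemocytes. Its probe cluster035778 led muscle, with 0.14, -1.07 and -0.08 there and -2.95 to -1.24 elsewhere, and its F test call was lost without muscle 1 (0.12), without muscle 3 (0.0996) and with common-probe scaling (0.0511). Cbl-b-like, MARCH2, ADRM1-like, ubiquitin C, ubiquitin-protein ligase and the general E2 descriptions also had probes with different highest tissues, so a description stands here for a probe and not for a gene's total.

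Other genes of these pathways that the description rule did not take were followed as a list of 78 probes, of which 58 were tested and 36 differed (background 69.1%). In muscle 24 were higher (background 20.4%) and 3 lower (18.4%), and in hepatopancreas 4 were higher (20.5%) and 22 lower (23.4%). Their median difference was 0.75 in muscle and -0.77 in hepatopancreas on the log2 scale. With common-probe scaling the counts were 20 and 10 in muscle (backgrounds 13.4% and 28.2%) and 5 and 11 in hepatopancreas (26.5% and 10.9%). The COP9 signalosome, which takes NEDD8 off cullins, had 6 probes (subunits 2, 3, 4, 5, 6 and 8), and all 6 were higher in muscle under both scalings. Its subunit 5 (cluster008792), which holds the catalytic site, was higher by 2.39 (SE 0.34, adjusted p 4.36e-05). Skp1 (cluster032098), the adaptor between cullin-1 and F-box proteins, was higher in muscle by 3.42 and lower in hepatopancreas (-2.52), and ring-box protein 1 (cluster010058), the RING subunit of most cullin ligases, was higher in muscle by 1.87. NEDD8 had 2 tested precursor probes in opposite tissues, one higher in muscle by 2.81 (cluster021114) and one higher in hepatopancreas by 5.94 (cluster013332). All 3 Rad23 probes, shuttle proteins that carry ubiquitinated cargo, were higher in muscle. Of the 6 tested probes for subunits of the anaphase-promoting complex, the cell-cycle ligase, 1 was higher in muscle.

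The 75 pathway probes that were not tested lacked full detection in every tissue: 29 were seen on 1 to 3 arrays, 36 on 4 to 8, and 3 on 9 or more. The remaining 7 were seen on no array, among them probes for TRIM23, RNF182-like, hydrolase 20 and HERC1, a description that 3 probes share. Detection was broadest in the lymphoid organ, where 177 of the 268 probes were detected on every usable array and 35 on none. In muscle these counts were 113 and 97, the most probes out of sight. Of all probes on the array, muscle arrays detected 41.0% to 52.1% each and lymphoid organ arrays 69.0% to 82.3%. Under the main scaling muscle also led the most pathway probes (33), while under common-probe scaling it led 15 and hepatopancreas 16.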

How the data were processed

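The deposited files are scanner output, 1 per array. Spot intensity values were extracted by the authors with Agilent Feature Extraction 10.7.3.1, per the submitters' processing notes, and the processed signal is background-corrected, per the file headers. The deposited value table holds log2 of the same signal, up to a constant per array. It was used to check the signal and as 1 of the alternative analyses. As such it is close to a copy of the main fit, and it gave the same 127 F test calls. Each signal was divided by its array's 75th percentile over 13875 non-control probes and put on the log2 scale, and compromised spots were left out. Tested were the 10317 probes with full detection in 1 tissue or more. limma 3.58.1 in R 4.3.3 fitted all 16 arrays with a trended prior. A call needed a Benjamini-Hochberg adjusted p below 0.05 within the comparison and a 2-fold difference. A fold written "at least" is a lower bound, with every undetected spot of the dimmer tissues raised to its array's lowest detected signal; log2 differences and p-values are those fitted to the signals as read. The number of arrays limits the precision. The fit was tested on simulated data.

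Members, lists and tests were chosen with earlier results of these data known. Named were the probes with the widest range per role, the largest differences per tissue, the clearest leaders, the highest signal per role and the 3 steadiest; others named, such as probes for the same protein, were chosen after their values were seen. The labels do not say whether arrays of different tissues with the same replicate number share an animal, and the main fit did not pair them. Deviations from the tissue mean correlated above 0.1 in 8 of 27 same-number pairs. Their r ran from -0.41 to 0.40, with a median of 0.02, against -0.02 for pairs of different numbers. Such correlations cannot decide whether samples were paired.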

Additional observations from a re-analysis of the deposited data

Results flagged for a closer look

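The 4 hemocyte arrays were the only group large enough to be checked for a single array far from the rest, and 4 of 58 named probes showed one. Chance flags about 1 in 20 such groups. Membrane-associated ring finger 8 (cluster002610) had -4.27 on hemocytes 1 and -5.98 to -5.89 on the others, and was not detected on any of them. The ubiquitin specific proteinase (cluster004551) had -1.98 on hemocytes 1 and -2.51 to -2.43 on the others. Transmembrane and ubiquitin-like domain-containing protein 2 (cluster012473) had 2.79 on hemocytes 1 and 1.79 to 1.91 on the others. Ubiquitin C variant 2 (cluster013212) had -5.14 on hemocytes 4 and -4.02 to -3.88 on the others.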

How the results depend on the processing

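Counts are of pathway probes, higher then lower against the mean of the other 4 tissues. Within slide 1, 50 probes differed among the tissues, with 0 and 0 in gills, 12 and 12 in hemocytes, 18 and 20 in hepatopancreas, 0 and 0 in lymphoid organ, 39 and 18 in muscle, 189 pair calls and 7 leading 1 tissue. Within slide 2 these were 35, then 1 and 5, 2 and 11, 18 and 20, 0 and 0, 10 and 6, 142 and 4; each slide holds fewer arrays. Common-probe scaling gave 6 lower in gills, 14 higher in hemocytes, 26 lower in hepatopancreas, 1 lower in lymphoid organ and 31 leading. Median scaling gave 46 higher in hemocytes and 3 in lymphoid organ, and quantile normalization 16 lower in hemocytes and 4 in lymphoid organ. The stricter detection filter gave 2 higher in gills, 19 higher in hepatopancreas and 0 lower in lymphoid organ. Array weights gave 23 lower in gills and, in lymphoid organ, 15 and 6. A 4-fold threshold gave 2 and 8 in gills, 6 and 14 in hemocytes, 15 lower in hepatopancreas, 2 and 1 in lymphoid organ, 27 and 12 in muscle, 344 pair calls and 27 leading. A common detection floor, chosen after seeing the data, gave 6 lower in gills, 16 and 11 in hemocytes and 18 lower in muscle. Apart from the fewer arrays within a slide and the stricter thresholds, the cause was not tested.

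Leaving out 1 array at a time gave 109 to 137 differing probes, 2 to 5 and 2 to 20 in gills, 19 to 31 and 19 to 28 in hemocytes, 23 to 30 and 41 to 69 in hepatopancreas, 1 to 8 and 0 to 3 in lymphoid organ, 50 to 61 and 16 to 29 in muscle, 467 to 608 pair calls and 32 to 49 leading. The lymphoid organ counts were 2 and 1 without array 1, 3 and 0 without array 2, and 1 and 0 without array 3. Gills higher fell to 2 without gills 2, and muscle lower was 16 without muscle 2 and 17 without muscle 3.

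With the replicate number as a block, 125 probes differed, with 550 pair calls and 45 leading; the lymphoid organ had 1 lower, and the other counts stayed within 1.5 times. The calls that no alternative outside the single slides ended were 76 of 127 for the F test, 49 of 87 in muscle, 44 of 87 in hepatopancreas, 16 of 50 in hemocytes, 2 of 17 in gills and 1 of 8 in lymphoid organ. No called direction turned in these alternatives; cluster002610 had no direction under the common detection floor, where its values were all equal. Low signal over background limits the probes undetected in a tissue: only folds written "at least" are bounds for them, and their log2 differences are fitted values.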
